A study of Mus musculus with 16 samples.

Results

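Inguinal white fat, the subcutaneous depot of the groin, was compared between mice given sunitinib and mice given vehicle by RNA sequencing of total RNA. The comparison rests on 4 of the 16 libraries of the series, 2 from sunitinib-treated and 2 from vehicle-treated C57BL/6 mice aged 24 weeks. Of the 22103 genes in the table of this tissue, the 14916 with a mean regularized log2 value of at least 3 over the 4 libraries were tested. The series used 8 mice, 4 for each treatment, and sampled both white fat depots, brown fat and liver. The labels do not tie a library to a mouse or a pool of mice, so a p-value here reflects the scatter of these libraries alone, which may be technical. For dose, route and length of treatment, the sources used here give nothing. The question was how this white fat depot responds to sunitinib at the level of gene expression.

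Sunitinib is an oral inhibitor of receptor tyrosine kinases, among them the receptors for vascular endothelial growth factors (VEGF), platelet-derived growth factors (PDGF), stem cell factor and colony-stimulating factor 1. In white fat these receptors sit on capillary endothelium, on pericytes and fibroblasts, on mast cells and on macrophages, while the adipocytes that fill the depot secrete leptin and adiponectin. The inguinal depot encloses a lymph node and lies against the muscle of the skin and body wall, so its RNA can hold lymphoid and muscle transcripts. In whole tissue, fewer cells of a type and less RNA per cell cannot be told apart.

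The 2 sunitinib libraries were less alike than the 2 vehicle libraries. Across the genes tested, the difference between replicates had an SD of 0.59 log2 units for the sunitinib pair and 0.224 for the vehicle pair, and 0.59 was the widest of the 8 pairs in the series, where the others lay between 0.119 and 0.3. Sunitinib replicate 2 exceeded replicate 1 by more than 2 log2 units in 264 genes and lay more than 2 below it in 47, against 0 and 2 genes between the vehicle replicates. The genes furthest above were lymphocyte genes and those furthest below were fast muscle genes. Each sunitinib library is therefore set against the vehicle libraries separately, as its log2 difference from their mean, beside the difference of the group means ± SE (2 libraries per group). All values and differences are on the regularized log2 scale, which is shrunk towards the mean of each gene, so differences of genes with few reads are understated. No read totals could be read from these values, so depth is unknown.

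With both sunitinib libraries in the fit, limma called 0 genes at a Benjamini-Hochberg adjusted p under 0.05, and the smallest adjusted p was 0.2. At an unadjusted p under 0.05, 1313 genes were lower after sunitinib (8.80%) and 578 were higher (3.88%), 1891 in all where 746 would be expected by chance. Both sunitinib libraries lay below both vehicle libraries in 3932 genes (26.4%) and above them in 3585 (24.0%). The groups stood apart by at least 0.5 in 406 lower genes (2.72%) and 120 higher genes (0.805%), and by at least 1 in 61 lower and 18 higher genes. Set alone against both vehicle libraries, sunitinib replicate 1 gave 461 lower (3.09%) and 272 higher genes (1.82%) at an adjusted p under 0.05, and sunitinib replicate 2 gave 1719 lower (11.5%) and 2384 higher genes (16%). These fits take the spread from the vehicle pair and assume that a lone sunitinib library varies like it, and they share the vehicle libraries. A fit over all 16 libraries, where the 4 tissues share 1 spread, called 1230 lower and 1195 higher inguinal genes of 11113 in all tables. It pools the inguinal sunitinib pair, with an SD of 0.59, with pairs between 0.119 and 0.3. Its spread may therefore be too small for this tissue, here and for the genes named below. It also takes no account of mice that tissues may share. Counts at an unadjusted p moved with single libraries. They were 2851 lower and 3257 higher when sunitinib replicate 1 was left out, 2016 and 1451 without replicate 2 of sunitinib, 315 and 60 without vehicle replicate 1, and 539 and 24 without vehicle replicate 2.

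**Figure D1:**
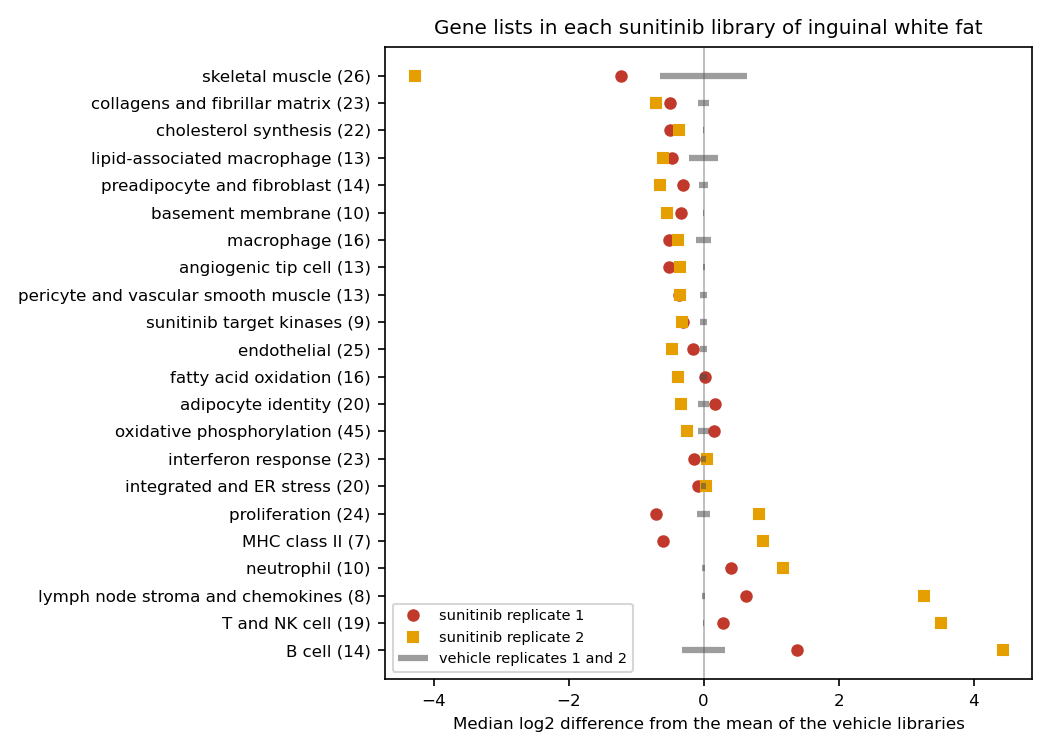
Median log2 difference of 22 gene lists from the mean of the vehicle libraries, one point for each sunitinib library (circles, replicate 1; squares, replicate 2), with the number of members tested in brackets. Grey bars span the median difference between the vehicle libraries, centred on 0. Matrix, cholesterol, macrophage and vascular lists lie left of 0 in both libraries, while the points of the muscle and lymphoid lists are far apart, as in the T and NK cell list at 0.29 and 3.52.

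Defining markers of white fat were measured in every library. Adipoq, which encodes adiponectin, had 16.16 and 15.63 in sunitinib replicates 1 and 2, against 15.94 and 16.06 in vehicle replicates 1 and 2. The groups overlapped, and the difference of −0.099 ± 0.31 (adjusted p = 0.892) became 0.21 under quantile normalization. Lep, which encodes leptin, the adipocyte hormone that signals fat stores to the brain, had 14.95 and 15.17 after sunitinib, against 16.24 and 16.60 after vehicle. Both sunitinib libraries were lower than both vehicle libraries by more than 1 log2 unit, with a difference of −1.36 ± 0.27, or 2.57-fold (adjusted p = 0.313). Alone, each sunitinib library passed for Lep, at −1.47 for replicate 1 (adjusted p = 0.0248) and −1.25 for replicate 2 (adjusted p = 0.00817). The fit over 4 tissues also passed for Lep, with an adjusted p of 0.00878.

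Other adipocyte genes lay on both sides of vehicle. The 20 adipocyte identity genes had a median difference of −0.091, with 0.17 in sunitinib replicate 1 and −0.33 in sunitinib replicate 2, and this median was 0.099 under quantile normalization. At an unadjusted p under 0.05, 2 of the 20 were lower and 1 was higher, against 8.80% and 3.88% of all genes. Among the other adipokines, Sfrp5, a secreted antagonist of Wnt ligands made by adipocytes, had 11.53 and 11.71 in sunitinib libraries, against 12.47 and 12.51 in vehicle libraries, a difference of −0.87 ± 0.11 (adjusted p = 0.295). The groups stood clear of each other for Sfrp5. Apln, which encodes the peptide apelin, lay at −1.09 and −0.67 in sunitinib replicates 1 and 2 from the vehicle mean. Metrnl, a secreted protein of fat and muscle, lay at −0.56 and −0.69. In all, 4 of 13 adipokine genes were lower at an unadjusted p under 0.05 and 0 were higher.

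Receptors that sunitinib blocks were measured as transcripts, which says nothing of their kinase activity. All 9 target kinases on the list were tested, and 5 of them had both sunitinib libraries below both vehicle libraries, where 26.4% of all genes did. Ret, the receptor for ligands of the glial cell line-derived neurotrophic factor family, had 9.37 and 9.65 after sunitinib, against 10.38 and 10.65 after vehicle. This difference of −1.01 ± 0.16 was the furthest from 0 among the 9 kinases and held in each library, with adjusted p-values of 0.00946 for sunitinib replicate 1 and 0.00408 for sunitinib replicate 2 alone.

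Receptors of VEGF gave small differences or split between the libraries. Kdr, VEGF receptor 2 and the main receptor of endothelial VEGF signalling, had 10.30 and 10.07 in sunitinib libraries and 10.20 and 10.19 in vehicle libraries, a difference of −0.013 ± 0.11 that turned to 0.024 under quantile normalization. For Flt1, VEGF receptor 1, the libraries split: sunitinib replicate 1 lay at 0.0041 and replicate 2 at −0.63 from the vehicle mean. Flt4, the lymphatic VEGF receptor 3, showed the reverse split of libraries, with 0.038 and 0.65. Pdgfrb, the PDGF receptor of pericytes, had 9.55 and 9.53 after sunitinib and 9.86 and 9.84 after vehicle, which is a small difference of −0.31 ± 0.088 between groups that did not overlap. Pdgfra, the PDGF receptor of fibroblasts and preadipocytes, differed by −0.25 ± 0.15. Kit, the stem cell factor receptor of mast cells, and Csf1r, the receptor that macrophages need for survival, differed by −0.55 ± 0.23 and −0.41 ± 0.17. Both were nearer to vehicle in sunitinib replicate 2 than in replicate 1. Of 7 mast cell genes tested, Kit alone had a negative difference and 6 had a positive one. The mast cell list had medians of −0.06 in sunitinib replicate 1 and 0.38 in replicate 2. Csf1r passed for replicate 1 alone, at −0.61 (adjusted p = 0.0324), and Kit passed in the fit over 4 tissues (adjusted p = 0.0371). Flt3, a receptor of lymphoid and dendritic progenitors, went opposite ways in the 2 libraries, at −0.53 in replicate 1 and 1.73 in replicate 2, between which the lymphoid lists also differed.

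At an unadjusted p under 0.05, 3 of 12 tested ligands of these receptors were lower, against 8.80% of all genes, and 0 higher. They were Pdgfa, a PDGF chain, at −0.51 ± 0.12, Figf, which encodes VEGF-D, at −0.47 ± 0.13, and Pgf, placental growth factor, at −0.53 ± 0.16. Each lay below vehicle in both sunitinib libraries. Vegfa, the principal endothelial growth factor, was named after its values were seen, because its libraries disagreed. It had 12.80 and 11.53 in sunitinib replicates 1 and 2, against 11.54 and 11.47 in the vehicle libraries. Only replicate 1 stood above both vehicle libraries by more than 1 log2 unit.

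Endothelial genes were mostly lower in both sunitinib libraries. Of 25 tested, 20 were below the vehicle mean in sunitinib replicate 1 and 22 in replicate 2, 7 were lower at an unadjusted p under 0.05 and 0 were higher, against 8.80% and 3.88% of all genes. The list median was −0.30, where the median of all genes was 0.0098, with −0.16 in sunitinib replicate 1 and −0.47 in sunitinib replicate 2. The vehicle libraries themselves differed by a median of −0.11 between replicate 2 and replicate 1, near the value of sunitinib replicate 1. Cd93, a C-type lectin of activated endothelium, had 9.47 and 9.34 after sunitinib, against 10.25 and 10.06 after vehicle. Cdh5, the cadherin of endothelial junctions, had 10.70 and 10.48 in sunitinib libraries and 11.19 and 11.19 in vehicle libraries. Their differences were −0.75 ± 0.12 and −0.60 ± 0.11, with adjusted p-values of 0.308 and 0.313. Tie1, an orphan receptor of endothelium, and Vwf, von Willebrand factor, lay at −0.54 ± 0.10 and −0.56 ± 0.12. The list was not uniform, since 5 of its 25 members, Kdr among them, lay above the vehicle mean in replicate 1.

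Genes of sprouting tip cells were mostly below vehicle in both sunitinib libraries. Of 13 tested, 6 were lower at an unadjusted p under 0.05 and 0 were higher, against 8.80% and 3.88% of all genes. Nid2, which is counted again under basement membrane, and Esm1 are among the 6. Below the vehicle mean lay 12 in sunitinib replicate 1 and 9 in replicate 2. The list had medians of −0.508 in replicate 1 and −0.354 in replicate 2. Dll4, the Notch ligand of tip cells, had 7.63 and 7.84 after sunitinib, against 8.31 and 8.28 after vehicle. Esm1, a secreted proteoglycan of tip cells induced by VEGF, had 3.14 and 3.12 against 3.49 and 3.52. Esm1 lay near the minimum mean of 3 in every library, so the likeness of its replicates is not read as a result. The apelin gene Apln belongs to this list as well as to the adipokines. Its receptor gene Aplnr, which marks angiogenic and venous endothelium and was chosen after its values were seen, had 7.27 and 7.06 in sunitinib libraries and 8.53 and 8.62 in vehicle libraries. That difference of −1.41 ± 0.14 was wider than for any member of the tip cell list, and each library passed alone (adjusted p = 0.00603 for replicate 1 and 0.000339 for replicate 2). The lymphatic endothelial list, with 6 members tested, had 0 members at an unadjusted p under 0.05 and split between the libraries, with medians of −0.14 in sunitinib replicate 1 and 0.58 in sunitinib replicate 2. In replicate 1, 2 of the 6 lay above the vehicle mean, and in replicate 2 it was 5.

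Mural cell genes were lower on the whole. Rgs5, a regulator of G-protein signalling that marks pericytes, had 10.87 and 10.89 after sunitinib, against 11.64 and 11.73 after vehicle. The replicates of each treatment nearly coincided, and the difference of −0.80 ± 0.093 had an adjusted p of 0.285. From the vehicle mean, Rgs5 lay at −0.81 in replicate 1 and −0.80 in replicate 2. Acta2 and Mylk, smooth muscle actin and myosin light chain kinase, lay at −0.41 ± 0.11 and −0.60 ± 0.15. The 13 pericyte and smooth muscle genes had medians of −0.364 in sunitinib replicate 1 and −0.345 in replicate 2. The vehicle libraries differed by a median of −0.104. All 13 lay below the vehicle mean in replicate 1 and 12 in replicate 2. At an unadjusted p under 0.05, 6 of the 13 were lower and 0 were higher, against 8.80% and 3.88% of all genes. One of the 6 is Des, desmin, which skeletal muscle also makes. Its −1.24 and −2.12 in replicates 1 and 2 moved with the skeletal muscle list, whose part in it was not tested.

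**Figure D2:**
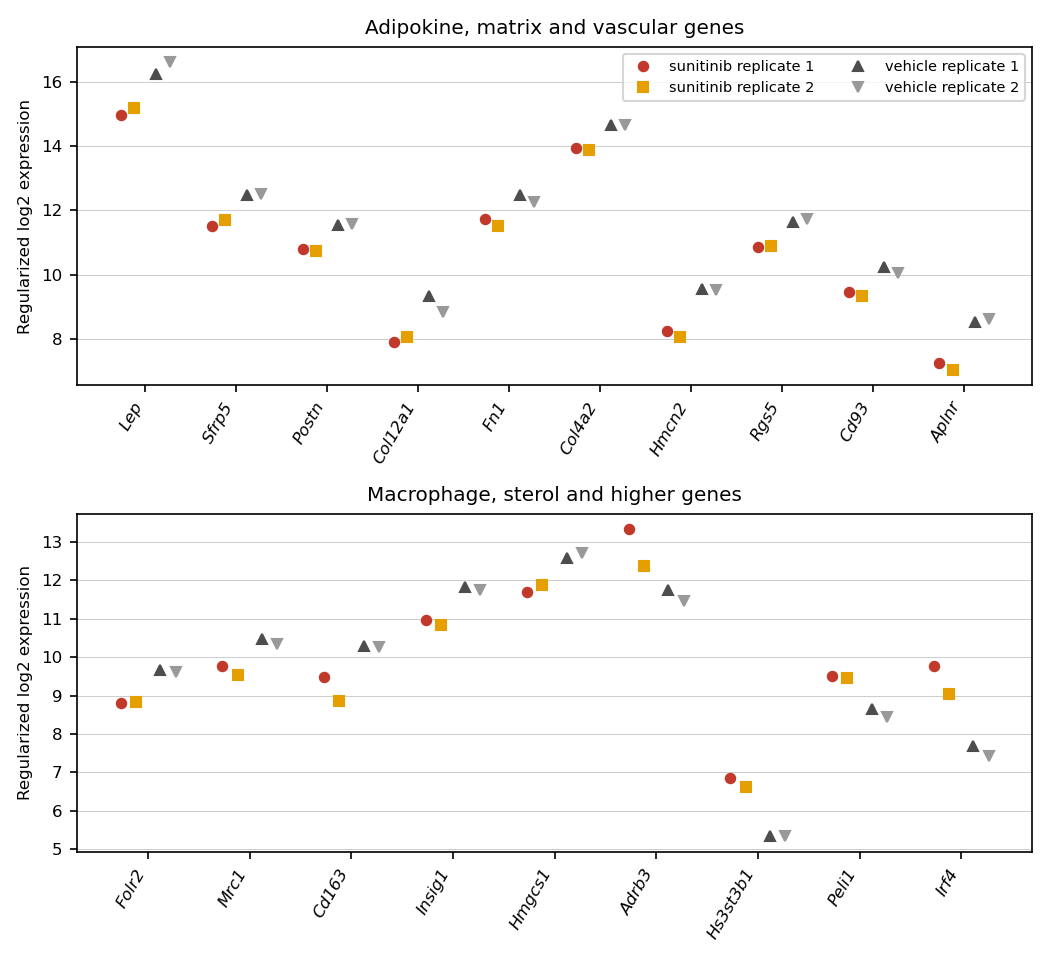
Regularized log2 expression of 19 genes in each library, sunitinib replicates (red circles, orange squares) left of vehicle replicates (grey triangles). In the upper panel every gene is lower in both sunitinib libraries, by −0.75 to −1.41 on average, and in the lower panel macrophage and sterol genes are lower and the last 4 genes are higher in both.

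Collagen and matrix genes were lower after sunitinib in both libraries. All 23 were tested, and 16 were lower at an unadjusted p under 0.05 and 0 higher, against 8.80% and 3.88% of all genes. In 20, both sunitinib libraries lay below both vehicle libraries, where 26.4% of all genes did so. The median difference was −0.59, with −0.50 in sunitinib replicate 1 and −0.71 in sunitinib replicate 2, and it was −0.41 under quantile normalization. Of the 23, 21 lay below the vehicle mean in replicate 1 and 22 in replicate 2. Summed on the linear scale, their level was 198000 and 177000 in sunitinib libraries, against 299000 and 288000 in vehicle libraries.

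Postn, which encodes periostin, a matricellular protein of remodelling tissue, had 10.80 and 10.74 after sunitinib, against 11.55 and 11.58 after vehicle. Col12a1, a collagen that coats fibrils, had 7.91 and 8.06 in sunitinib libraries, against 9.34 and 8.84 in vehicle libraries. Fn1, fibronectin, stood at 11.74 and 11.52 after sunitinib and 12.48 and 12.27 after vehicle. In each of these genes the sunitinib libraries were within 0.3 of each other and below both vehicle libraries, with differences of −0.79 ± 0.089 for Postn, −1.10 ± 0.21 for Col12a1 and −0.75 ± 0.14 for Fn1. Fbn1, the microfibril protein fibrillin, lay at −0.69 and −1.11 in sunitinib replicates 1 and 2 from the vehicle mean. The abundant fibrillar collagens Col1a1 and Col3a1 lay at −0.63 ± 0.17 and −0.70 ± 0.23. Adjusted p-values for these 6 genes lay between 0.285 for Postn and 0.374 for Col3a1.

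Basement membrane genes showed the same direction, with a median of −0.42, or −0.33 in sunitinib replicate 1 and −0.55 in replicate 2. At an unadjusted p under 0.05, 6 of 10 were lower and 0 higher, against 8.80% and 3.88% of all genes. In replicate 1, 3 of the 10 lay above the vehicle mean. Col4a2, a chain of the network-forming collagen IV, had 13.93 and 13.89 after sunitinib, against 14.66 and 14.66 after vehicle, a difference of −0.75 ± 0.15. Its partner chain Col4a1 and the proteoglycan gene Hspg2, perlecan, lay at −0.60 ± 0.19 and −0.62 ± 0.17. Nid2, nidogen 2, lay at −0.50 ± 0.09. Hmcn2, a hemicentin of the extracellular matrix that was on none of the lists, had 8.25 and 8.08 in sunitinib libraries, against 9.57 and 9.54 in vehicle libraries. Its difference of −1.39 ± 0.11, 2.61-fold, was among the 10 lower genes with the smallest p (adjusted p = 0.272), where 8 of the other 9 are genes of striated muscle.

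Genes of preadipocytes and fibroblasts had a median of −0.44, with −0.31 in sunitinib replicate 1 and −0.65 in replicate 2. At an unadjusted p under 0.05, 4 of 14 were lower and 0 higher, against 8.80% and 3.88% of all genes. All 14 lay below the vehicle mean in replicate 1, while 11 lay below it and 3 above it in replicate 2. Cd34, a sialomucin of adipose stromal and endothelial progenitors, had 10.18 and 9.88 after sunitinib, against 10.90 and 10.82 after vehicle. Col14a1, a fibroblast collagen, had 8.56 and 8.32 in sunitinib libraries, against 9.41 and 9.21 in vehicle libraries. Both genes were lower in each sunitinib library, by −0.83 ± 0.14 and −0.87 ± 0.14. Fbn1 counts under this list as well as under matrix.

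Macrophage genes were mostly below vehicle in both sunitinib libraries. Of 16 tested, 15 lay below the vehicle mean in replicate 1 and 12 in replicate 2. At an unadjusted p under 0.05, 6 were lower and 0 higher, against 8.80% and 3.88% of all genes. The list had medians of −0.505 in replicate 1 and −0.374 in replicate 2, and the vehicle libraries differed by a median of −0.228. The 6 at an unadjusted p were 3 genes of tissue-resident macrophages and the 3 chains of complement C1q. Folr2, a folate receptor of resident macrophages, had 8.82 and 8.82 after sunitinib, against 9.66 and 9.60 after vehicle. Mrc1, the mannose receptor CD206, had 9.78 and 9.53 in sunitinib libraries, against 10.48 and 10.33 in vehicle libraries. Cd163, the scavenger receptor for haemoglobin, had 9.49 and 8.85 after sunitinib and 10.28 and 10.27 after vehicle. These 3 genes were lower in each library, by −0.81 ± 0.093, −0.75 ± 0.13 and −1.10 ± 0.24, with adjusted p-values of 0.285, 0.313 and 0.313. C1qa, C1qb and C1qc lay at −0.38, −0.43 and −0.40.

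Of 13 genes of lipid-associated macrophages, the foam cell state of obese fat, 2 were lower at an unadjusted p under 0.05 and 0 higher. Over all genes these shares were 8.80% and 3.88%. The list had a median of −0.46, with −0.47 in sunitinib replicate 1 and −0.60 in replicate 2. The vehicle libraries themselves differed here, by a median of −0.43 between replicate 2 and replicate 1. Fabp5, a fatty acid chaperone of macrophages and endothelium, lay at −0.80 ± 0.13, and Lgals3, galectin 3, at −0.71 ± 0.20. Trem2, their lipid receptor, had 7.57 and 7.02 in sunitinib libraries and 8.47 and 7.71 in vehicle libraries. The replicates of each treatment were more than 0.5 apart, and the difference was −0.79 ± 0.34. Trem2 passed for replicate 2 alone, at −1.07 (adjusted p = 0.033). Ubd, a small modifier of the ubiquitin family that cytokines induce, was named after its values were seen. It had 8.51 and 9.29 after sunitinib, against 11.19 and 10.73 after vehicle, a difference of −2.06 ± 0.32. Of 23 interferon-induced genes, 2 were lower at an unadjusted p under 0.05, where 8.80% of all genes were, and 0 were higher. The 2 lower genes were Rsad2 at −0.78 ± 0.15 and Ifit3 at −0.62 ± 0.16. The list had medians of −0.14 in sunitinib replicate 1 and 0.056 in sunitinib replicate 2. Of the 23, 21 lay below the vehicle mean in replicate 1 while 15 lay above it in replicate 2.

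Cholesterol synthesis genes were lower in both sunitinib libraries. Of 22 tested, 13 were lower at an unadjusted p under 0.05 and 0 were higher, against 8.80% and 3.88% of all genes, and 17 had both sunitinib libraries below both vehicle libraries. The median was −0.49, with −0.50 in sunitinib replicate 1 and −0.36 in sunitinib replicate 2, and −0.50 under quantile normalization. The vehicle libraries differed by a median of 0.01. Alone, sunitinib replicate 1 passed as lower for 9 of the 22 genes, where 3.09% of all genes did, and replicate 2 for 9, where 11.5% did. Replicate 2 also passed as higher for 1.

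Insig1, the sterol-sensing retention protein that is itself a target of the sterol regulatory element-binding proteins (SREBP), had 10.98 and 10.84 after sunitinib, against 11.83 and 11.76 after vehicle. Hmgcs1, the cytosolic synthase that opens the pathway, had 11.69 and 11.89 in sunitinib libraries, against 12.57 and 12.70 in vehicle libraries. The differences were −0.88 ± 0.10 for Insig1 and −0.85 ± 0.13 for Hmgcs1, and both libraries passed alone in each gene. Lss, lanosterol synthase, lay at −0.54 ± 0.092. The pathway was not lower throughout, since 2 of the 22 genes were above the vehicle mean in sunitinib replicate 1 and 3 were in replicate 2, Srebf2 at 0.75 and Stard4 at 0.28 among these 3.

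The promoters of Insig1 and Hmgcs1 are shown because SREBP target genes are classically described by a sterol regulatory element next to a CCAAT box, the site of the factor NF-Y. They are RefSeq sequences of the build GRCm38.p6, not the build of the deposited values, from 250 bases before to 50 after the start, on the + strand at chr5:28071162-28071461 for Insig1 and chr13:119690101-119690400 for Hmgcs1. Capitals mark TCACNCCAC, a sterol regulatory element core, and CCAAT, each searched on both strands, so that ATTGG is a CCAAT on the other strand. No match of one motif overlapped one of the other.
Insig1: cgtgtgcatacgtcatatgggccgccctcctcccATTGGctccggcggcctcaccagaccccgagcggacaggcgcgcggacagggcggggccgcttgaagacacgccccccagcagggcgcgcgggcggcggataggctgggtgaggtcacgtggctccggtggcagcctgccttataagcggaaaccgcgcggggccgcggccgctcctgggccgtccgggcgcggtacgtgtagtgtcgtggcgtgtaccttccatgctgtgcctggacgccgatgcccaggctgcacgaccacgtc
Hmgcs1: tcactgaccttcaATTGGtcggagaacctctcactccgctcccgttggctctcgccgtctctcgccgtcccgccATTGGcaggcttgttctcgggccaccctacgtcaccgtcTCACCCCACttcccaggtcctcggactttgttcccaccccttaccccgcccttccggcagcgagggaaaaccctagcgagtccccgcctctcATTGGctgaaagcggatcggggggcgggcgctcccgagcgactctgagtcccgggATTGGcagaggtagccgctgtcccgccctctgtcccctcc
The window of Hmgcs1 held 4 CCAAT and 1 TCACNCCAC, and that of Insig1 held 1 CCAAT and 0 TCACNCCAC. A promoter was in the table for 15 of the 22 cholesterol genes tested. CCAAT was found for 15 of these 15 genes, against 42.6% of the 10059 tested genes with a promoter. Counted by promoter, it was in 15 of their 18, against 37.4% of all 32851. TCACNCCAC was found for 1 of the 15 genes, against 1.47% of tested genes with a promoter. It was in 1 of the 18 promoters, against 1.24% of all promoters. These matches describe letters in a window and were not tested as sites of binding.

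Genes of fat storage and fuel use lay on both sides of vehicle, and the sunitinib libraries often split. Adrb3, the adrenergic receptor that drives lipolysis in rodent adipocytes, was higher in both, with 13.34 and 12.37 after sunitinib, against 11.76 and 11.47 after vehicle. Each sunitinib library passed alone for Adrb3, at 1.73 in replicate 1 (adjusted p = 0.00348) and 0.76 in replicate 2 (adjusted p = 0.00857), beside an adjusted p of 0.354 with both. Pck1, phosphoenolpyruvate carboxykinase, which makes glycerol backbone in fat, had 16.01 and 15.34 after sunitinib and 14.61 and 14.87 after vehicle. In both genes the difference was wider in replicate 1 than in replicate 2.

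On the lower side, Dgat2, which catalyses the last step of triglyceride synthesis, had 14.51 and 14.41 after sunitinib, against 15.19 and 15.49 after vehicle, a difference of −0.88 ± 0.20. Agpat2, an acyltransferase of the same route, lay at −0.67 ± 0.18. Fasn, fatty acid synthase, was close to vehicle at 0.061 and 0.058 in the 2 libraries. At an unadjusted p under 0.05, 2 of the 21 synthesis genes were lower and 0 higher, against 8.80% and 3.88% of all genes. Npr3, the clearance receptor of natriuretic peptides, lay at −0.66 ± 0.18, Hk2, hexokinase 2, at −0.56 ± 0.14 and Pfkfb3, a regulator of glycolysis, at −0.57 ± 0.13. Oxtr, the oxytocin receptor, was chosen after its values were seen, with 9.63 and 10.05 after sunitinib, against 11.60 and 11.98 after vehicle and a difference of −1.95 ± 0.21.

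Mitochondrial and browning genes gave no common direction. All 45 genes of oxidative phosphorylation lay below the vehicle mean in sunitinib replicate 2 and 8 did in replicate 1, with medians of −0.24 in replicate 2 and 0.16 in replicate 1. The overall median of −0.037 was 0.052 under quantile normalization, and 1 of 45 was lower at an unadjusted p under 0.05. Ucp1, the uncoupling protein of brown and beige adipocytes, named after its values were seen, had 5.30 and 5.20 after sunitinib, against 5.08 and 4.66 after vehicle, a difference of 0.38 ± 0.19 (adjusted p = 0.461). Of 12 thermogenic genes tested, 2 were lower at an unadjusted p under 0.05 and 0 higher, against 8.80% and 3.88% of all genes. One of the 2 was Fabp3, a fatty acid-binding protein of muscle and brown fat, at −2.43 ± 0.22. Its pattern followed the slow muscle genes, whose part in it was not tested.

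Skeletal muscle transcripts were lower in both sunitinib libraries. All 26 muscle genes lay below the vehicle mean in each sunitinib library. The groups stood apart as lower in 25, where 26.4% of all genes did so. At an unadjusted p under 0.05, 10 were lower, against 8.80% of all genes. The list median was −2.84, with −1.23 in sunitinib replicate 1 and −4.28 in sunitinib replicate 2, and the vehicle libraries themselves differed by a median of −1.29 between replicate 2 and replicate 1. The summed linear level of the list was 95500 and 11700 in sunitinib replicates 1 and 2, against 336000 and 128000 in vehicle replicates 1 and 2. Regularized log values have no zero, so whether any marker was absent could not be read.

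Among genes of slow or oxidative fibres, several lay near the low end of the scale in both sunitinib libraries, so their likeness between these libraries is not read as a result. Csrp3, a muscle LIM protein, had 4.45 and 4.44 after sunitinib, against 7.61 and 7.65 after vehicle, and its difference of −3.19 ± 0.14 had the smallest adjusted p of all genes (0.2). Myl2, the regulatory light chain of slow myosin, had 4.44 and 4.42 in sunitinib libraries, against 6.32 and 6.67 in vehicle libraries. Mb, myoglobin, had 7.54 and 6.77 after sunitinib and 10.76 and 11.04 after vehicle, 13.4-fold apart. Mb lay above the low end of the scale in both sunitinib libraries, and replicate 2 was lower there than replicate 1. Ankrd2, Mybpc1, Myl3, Lmod2, Actn2 and Smtnl1, other genes of striated muscle, were also among the 10 lower genes with the smallest p. Their differences ran from −4.43 for Mybpc1 to −1.92 for Myl3. The 5 slow fibre members of the list, a split made after the values were seen, had medians of −2.05 in replicate 1 and −2.07 in replicate 2, and 4 of the 5, all but Mb, were below 5 in both sunitinib libraries.

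In genes of fast fibres the 2 sunitinib libraries were far apart. Myh4, the fast myosin IIb, had 14.59 and 10.19 in sunitinib replicates 1 and 2, against 16.30 and 14.43 in the vehicle replicates. Ckm, muscle creatine kinase, had 12.30 and 8.18 after sunitinib and 14.11 and 12.52 after vehicle. Sunitinib replicate 1 lay close to vehicle replicate 2 in both genes, while replicate 2 was lower by more than 3 log2 units than any other library. Actn3, Atp2a1, Mylk4, Myoz1, Pvalb, Pygm, Tnni2 and Tnnt3 completed the 10 genes with the largest excess of replicate 1 over replicate 2. The 14 fast fibre members had medians of −1.16 in replicate 1 and −4.86 in replicate 2. Of these, 3 were lower at an unadjusted p under 0.05, against 8.80% of all genes.

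**Figure D3:**
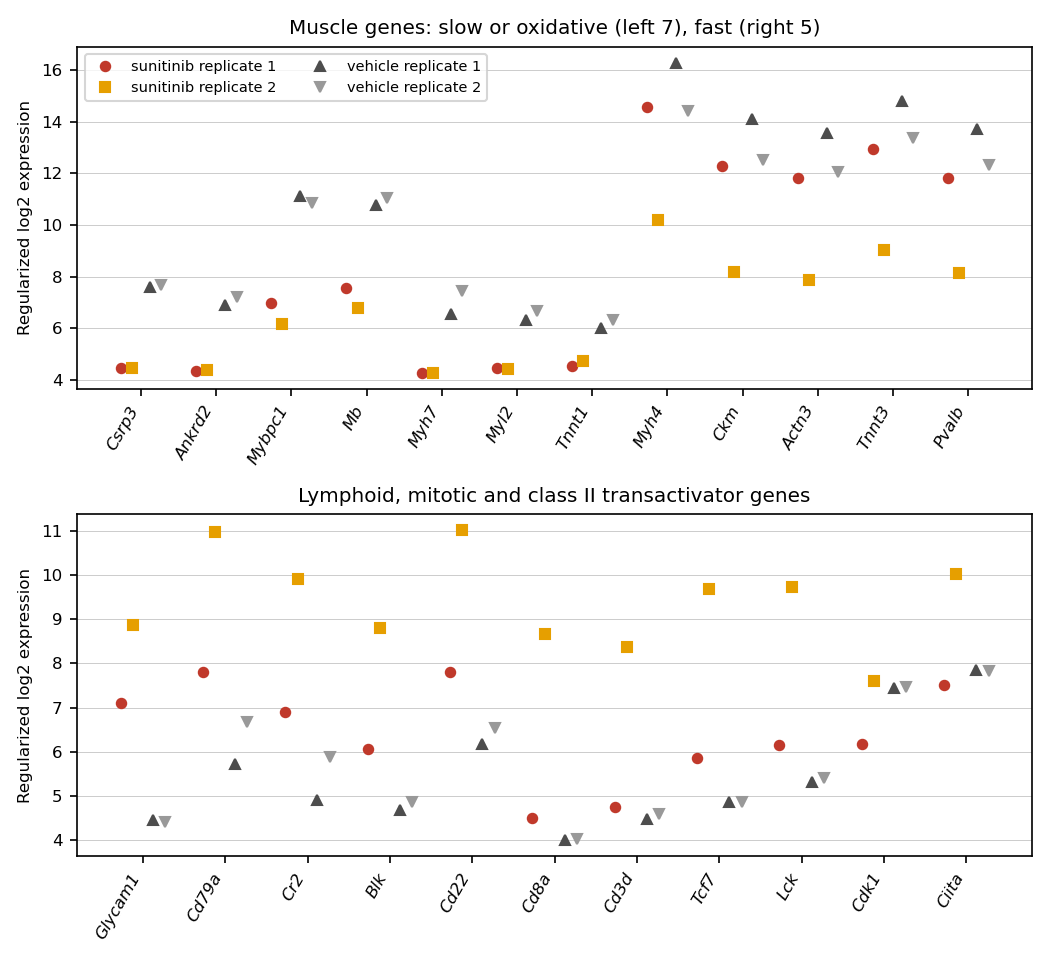
Regularized log2 expression of muscle genes (upper panel) and of lymphoid and related genes (lower panel) in each library, sunitinib replicates left of vehicle replicates. Several slow fibre genes lie near the low end of the scale in both sunitinib libraries, while fast fibre genes and T cell genes are far apart between them, as in Ckm at 12.30 and 8.18, and Cd8a at 4.49 and 8.68.

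Lymphoid genes were higher in sunitinib replicate 2 by far, and less so in replicate 1. All 14 B cell genes tested had both sunitinib libraries above both vehicle libraries, where 24.0% of all genes did, with medians of 1.39 in sunitinib replicate 1 and 4.43 in sunitinib replicate 2. At an unadjusted p under 0.05, where 3.88% of all genes were higher, 4 of the 14 were. Their summed linear level was 1700 and 14100 in sunitinib replicates 1 and 2, against 530 and 867 in the vehicle replicates. Cd79a, a signalling chain of the B cell receptor, had 7.81 and 10.97 after sunitinib, against 5.72 and 6.68 after vehicle. Blk, a B cell kinase, had 6.05 and 8.81 in sunitinib libraries and 4.68 and 4.86 in vehicle libraries.

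T and natural killer cell genes were far higher in replicate 2 than in replicate 1. Of 19 tested, 12 lay above the vehicle mean in sunitinib replicate 1 and all 19 did in replicate 2. Both sunitinib libraries lay above both vehicle libraries in 12, where 24.0% of all genes did so. The list had medians of 0.29 in sunitinib replicate 1 and 3.52 in sunitinib replicate 2. The summed level was 770 and 6910 in sunitinib replicates 1 and 2, against 703 and 665 in the vehicle replicates. Cd8a, the co-receptor of cytotoxic T cells, had 4.49 and 8.68 in the sunitinib replicates, against 3.99 and 4.01 in the vehicle replicates. Tcf7, a transcription factor of naive T cells, had 5.86 and 9.70 after sunitinib and 4.86 and 4.86 after vehicle. Cd3d, Cd3g, Cd8b1, Lat, Lck, Slamf6, Ccl5 and immunoglobulin segments, listed as abParts, made up the rest of the 10 genes with the largest excess of replicate 2 over replicate 1.

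Genes of lymph node stroma followed. Glycam1, a ligand of L-selectin on the high endothelial venules of lymph nodes, had 7.10 and 8.88 after sunitinib, against 4.44 and 4.41 after vehicle. It was higher in both libraries, and each passed alone, at 2.67 for replicate 1 (adjusted p = 0.000727) and 4.45 for replicate 2 (adjusted p = 2.72e-05). Cxcl13, the chemokine that draws B cells into follicles, lay at 0.86 and 3.23. Of 8 genes tested, 7 lay above the vehicle mean in replicate 1 and all 8 did in replicate 2. The summed level was 626 and 4030 in sunitinib replicates 1 and 2, against 282 and 302 in the vehicle replicates. Of 10 neutrophil genes, 3 were higher at an unadjusted p under 0.05, against 3.88% of all genes. They were S100a9 at 1.37 and 3.76 in replicates 1 and 2, Ngp at 1.25 and 3.48 and Elane at 0.49 and 0.38. In replicate 1, 7 of the 10 lay above the vehicle mean and 3 below it, while all 10 lay above it in replicate 2.

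Some lists turned round between the sunitinib libraries. All 24 proliferation genes lay below the vehicle mean in replicate 1 and above it in replicate 2, with medians of −0.703 and 0.825, as in Cdk1, the mitotic kinase, which had 6.17 and 7.59 in sunitinib libraries and 7.45 and 7.47 in vehicle libraries. The 7 genes of major histocompatibility complex class II did the same, with medians of −0.60 in replicate 1 and 0.88 in replicate 2. Cd74, the invariant chain, lay at −0.60 and 1.07, and Ciita, the class II transactivator, at −0.32 and 2.20. For both lists 0 members had the groups apart, so the mean of the 2 libraries describes neither. Both lists were higher in replicate 2 than in replicate 1, as the lymphoid lists were. In replicate 1, where both lay below vehicle, the B cell list had a median of 1.39 and the T and NK cell list 0.29. The part of lymphoid RNA in these values was not tested.

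Genes on none of the lists, Hs3st3b1 and Peli1 among them, were also higher in both sunitinib libraries. Hs3st3b1, a heparan sulfate sulfotransferase, had 6.86 and 6.61 after sunitinib, against 5.35 and 5.34 after vehicle, and the smallest p among higher genes at a difference of 1.39 ± 0.16 (adjusted p = 0.285). Peli1, a ubiquitin ligase of innate immune signalling, had 9.51 and 9.45 in sunitinib libraries, against 8.65 and 8.45 in vehicle libraries. Irf4, which is on the plasma cell list, is a transcription factor of lymphocytes that fasting also induces in mouse fat. It had 9.77 and 9.04 after sunitinib and 7.68 and 7.42 after vehicle. Irf4 was higher in replicate 1 than in replicate 2, unlike the T and B cell lists, at 2.22 and 1.49.

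Among the 10 higher genes with the smallest p, 4 encode proteins that bind RNA or act with the splicing machinery and are given here. They were Pnn at 0.67 ± 0.11, Prpf38b at 0.74 ± 0.13, Ccnl1 at 0.68 ± 0.12 and Safb2 at 0.80 ± 0.14. This grouping was seen after the values and was not tested. Pnn, pinin, had 10.07 and 10.28 in sunitinib libraries, against 9.53 and 9.47 in vehicle libraries. Dennd2d, a regulator of Rab proteins, lay at 1.34 and 1.76 in sunitinib replicates 1 and 2. Of the stress genes, Creld2 and Pdia4, endoplasmic reticulum proteins, lay at 0.54 ± 0.12 and 0.38 ± 0.086, while Psat1, an enzyme of serine synthesis, lay at −0.39 ± 0.11. These 3 of the 20 stress genes had an unadjusted p under 0.05, 2 higher and 1 lower, against 3.88% and 8.80% of all genes. The groups stood apart as higher in 6 and as lower in 7, where 24.0% and 26.4% of all genes did so. The list had a median of −0.015. Cdkn1a, the cell cycle inhibitor p21, lay lower at −0.66 ± 0.094, and Hr, a corepressor regulated by thyroid hormone, at −0.89 ± 0.10.

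Against epididymal white fat, the visceral depot of the same series, no difference in response passed at an adjusted p under 0.05. The contrast of inguinal minus epididymal differences in limma called 0 higher and 0 lower of 14352 genes tested in both depots, with 0.134 the smallest adjusted p. At an unadjusted p under 0.05, 628 were higher (4.38%) and 815 lower (5.68%), where 718 in all would be expected. Without sunitinib replicate 1 of the inguinal depot the contrast called 2180 higher and 879 lower genes, and without its replicate 2 it called 9 and 8. Without the filter on low values it called 10 lower genes, Csrp3, Ankrd2 and Myl2 among them, and after quantile normalization 1, Mss51. Each depot had its own table and shrinkage, so the scale of differences may not be equal.

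Lep lay at −1.36 ± 0.27 in inguinal and −1.01 ± 0.12 in epididymal fat, a contrast of −0.35 ± 0.25 (adjusted p = 0.608). Hmcn2 was nearly as far from vehicle in both, at −1.39 ± 0.11 in inguinal and −1.50 ± 0.071 in epididymal fat. Cd93, Rgs5, Postn and Insig1 also lay on the same side in both depots, at −0.94, −0.70, −0.66 and −0.76 in epididymal fat. The contrast passed for none of them.

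Some genes lay apart in inguinal fat and near 0 in epididymal fat, though none of these contrasts passed. Ret lay at −1.01 ± 0.16 in inguinal and −0.061 ± 0.12 in epididymal fat (adjusted p of the contrast = 0.442). Fbn1 lay at −0.90 ± 0.17 and −0.064 ± 0.077 in the inguinal and the epididymal depot, and Hs3st3b1 at 1.39 ± 0.16 and 0.15 ± 0.13. The smallest adjusted p of the contrast, 0.134, was reached by Mss51, a muscle gene, at −2.77 ± 0.23 in inguinal and 0.028 ± 0.027 in epididymal fat, and by Fabp3-ps1, a pseudogene whose reads the counting may have split with Fabp3. Among contrasts towards higher in inguinal fat, Peli1, Hs3st3b1, H2-D1 and Abcg1 were 4 of the 5 genes with the smallest p once predicted names were left out, with inguinal values of 0.30 ± 0.11 for H2-D1, a class I histocompatibility gene whose reads may be shared with close paralogs, and 0.47 ± 0.13 for Abcg1, a cholesterol exporter, and epididymal values of −0.33 ± 0.066 and −0.45 ± 0.088. In the macrophage state of obese fat, Trem2 lay at −0.79 ± 0.34 in inguinal and −1.68 ± 0.10 in epididymal fat (adjusted p of the contrast = 0.511).

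As lists, cholesterol synthesis had medians of −0.49 in inguinal and −0.22 in epididymal fat, collagens and matrix −0.59 and −0.34, endothelium −0.30 and −0.36, and lipid-associated macrophages −0.46 and −1.11. The B cell list had 2.93 in inguinal and 0.043 in epididymal fat over the 10 genes tested in both, and the muscle list −2.98 and −0.05 over 21. List differences between depots were not tested.

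**Figure D4:**
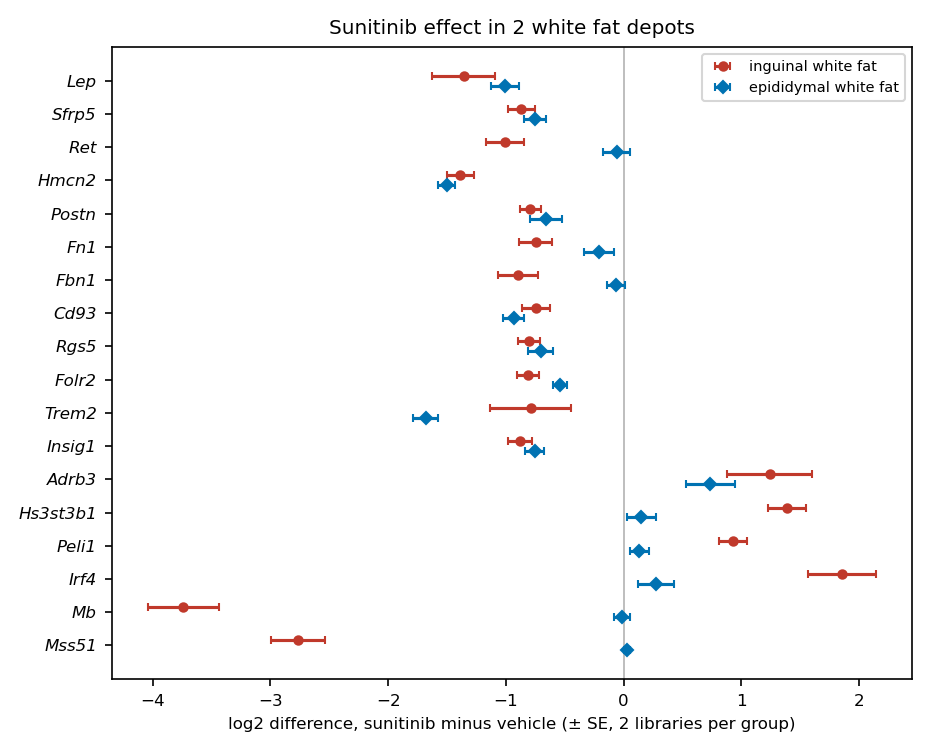
Difference of sunitinib minus vehicle (log2, ± SE, 2 libraries per group) for 18 genes in inguinal fat (red circles) above epididymal fat (blue diamonds). Lep, Hmcn2, Postn, Cd93, Rgs5 and Insig1 lie left of 0 in both depots, while Mb and Mss51 lie at −3.74 and −2.77 in inguinal fat and at −0.014 and 0.028 in epididymal fat.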

How the data were processed

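The submitters' processing notes name DESeq2, bedtools, TopHat2 2.1.1 and bcl2fastq 2.17.1.14 and the mouse build mm9, with no role or order. The sources used here do not give the annotation, the counting settings or whether strand was used, so overlapping or antisense genes may share reads. The values the authors deposited are regularized log2 expression per gene and library, in 1 table per tissue, as the tables' names state. Such values do not allow a count test.

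The 4 inguinal libraries were fitted in limma 3.58.1 (R 4.3.3) with an intensity trend, 2 residual and 2.19 prior degrees of freedom, and two-sided Benjamini-Hochberg adjustment over 14916 genes with a mean of at least 3. Fits of 1 sunitinib library against both vehicle libraries, alternative filters, scalings and variance models, and an interaction contrast with epididymal fat (14352 genes) used the same method. The gene fit was checked on simulated data for its estimates of differences, with the same spread in both groups. No error rate or power is drawn from that check. Groups and replicate numbers came from the sample titles, and no 2 libraries held the same values. The replicate numbers were not used as pairs.

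Of the symbols, 21 had the form of dates and are not named. Gene lists numbered 43 with 636 unique genes, of which 614 were in the table (4 by another symbol) and 570 were tested. Genes named were the 10 with the smallest p per direction with the groups apart, the 5 with the widest gap per direction, the 10 with the largest replicate difference each way, all target kinases, up to 4 members per list by p, and the 5 with the smallest p of the contrast per direction, predicted names left out. Lists, members and rules were chosen with earlier results of these data known. Col1a1, Col3a1, Fasn, C1qa, C1qc, Srebf2, Stard4, Vegfa, Ucp1, Aplnr, Oxtr and Ubd were chosen after their values were seen. Summed linear levels add 2 to the power of each value. Promoters were taken from RefSeq (GRCm38.p6). Some genes that these rules pick are not reported here.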

Additional observations from a re-analysis of the deposited data

How the results depend on the processing

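Counts at an adjusted p under 0.05 in inguinal fat remained 0 with a minimum mean of 5, with no filter, after quantile normalization or median centring, without the intensity trend, with robust variances and with a replicate block. One fit over 4 tissues called 1195 higher and 1230 lower genes, and leaving out 1 library gave 0 to 2384 higher and 0 to 1719 lower. The count at an unadjusted p, an alternative chosen after seeing the data, was 2153 higher and 2001 lower in the fit over 4 tissues, and 24 to 3257 higher and 315 to 2851 lower without 1 library. With the replicate number as a block it was 353 higher and 1035 lower. Same-numbered libraries deviated together with a correlation of 0.108 over only 2 pairs, and the labels do not say that a number marks a shared mouse or day.

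The depot contrast called 10 lower genes without the filter and 1 after quantile normalization, and 0 to 2180 higher and 0 to 879 lower genes without 1 library. Of 1106 values of named genes under settings with all 4 libraries, 62 passed where the main value did not and 3 changed sign: Adipoq at 0.21 and Kdr at 0.024 after quantile normalization, and Stard4 at −0.026 after median centring. With 1 library left out, Adipoq ranged from −0.37 to 0.17, Kdr from −0.12 to 0.098, Flt1 from −0.63 to 0.0041, Flt3 from −0.53 to 1.73, Cdk1 from −1.29 to 0.13, Ciita from −0.32 to 2.20, Cd74 from −0.60 to 1.07, Srebf2 from −0.14 to 0.75 and Stard4 from −0.27 to 0.28. The cause was not tested for any of these. Of 179 list medians with all 4 libraries, 5 moved by more than the spread between replicates, as did 33 of 180 with 1 library left out. No value could be had for the epithelial list at a minimum mean of 5. With 2 libraries per group an exact permutation test cannot give a p below 0.333, and with no read totals no limit of detection could be set.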
